A study of Mus musculus with 17 samples.

Results

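Hepatic stellate cells and fibroblasts are the collagen-producing cells of the liver, and a preparation of hepatocytes can carry some of their RNA. Their level was read here from 10 marker genes (Des, Lum, Dcn, Col1a1, Col1a2, Col3a1, Lrat, Reln, Rgs5 and Pdgfrb), chosen by name as markers of residual stromal cells among 55536 gene identifiers. All 10 passed the filter on low counts, which left 14393 genes. The RNA came from hepatocytes that were isolated from the liver with collagenase, in C57BL/6J mice 3 months old with the genotype ApcDHep. Every mouse had received AAV8, a viral vector that reaches hepatocytes, with constructs of the nuclease SaCas9 for 1 month, and tamoxifen (2 mg, 7 days). One group was edited at Rosa26, a locus often taken as a neutral site (5 RNA-seq and 3 miRNA-seq libraries). The other was edited at the site that β-catenin binds upstream of DLK1/DIO3, an imprinted locus, labelled DLK1DWRE and called WRE-edited below (6 RNA-seq and 3 miRNA-seq libraries). The labels give neither the driver of the Apc deletion nor the share of edited cells, and no unedited group or mice with intact Apc were analysed here.

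In the healthy liver, stellate cells lie between the sinusoidal endothelium and the hepatocytes, where they store vitamin A as retinyl esters. After injury they can turn into myofibroblasts, under signals that include PDGF and TGF-β, and lay down fibrillar collagen. Fibroblasts around the portal tracts, and the smooth muscle cells and pericytes of vessels, are other sources of collagen and of several of these markers.

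The library names place the RNA-seq libraries in 3 runs, a word the labels do not define. Run r770 held WRE-edited 1 to 3 and Rosa26-edited 1 to 3, run r595 held WRE-edited 6 and Rosa26-edited 4 and 5, and run r711 held WRE-edited 4 and 5 and no control. WRE-edited 4 and WRE-edited 6 share a number in their names, and nothing in the labels says that each library is a different animal. The p-values therefore rest on the spread among libraries, which may be technical. Totals were 20727036 to 38935135 expected counts per library. Mitochondrial ribosomal RNA took 2.29% to 3.00% of counts in r595 and 19.02% to 29.09% elsewhere. The hepatocyte genes Alb and Apoa1 had median levels of 14750 and 1858 TPM (a level per transcript length, scaled to the library). Rian, a long non-coding RNA of the DLK1/DIO3 locus, fell in the WRE-edited libraries by 2.30 ± 0.26 on the log2 scale (SE; edgeR adjusted p = 0.0188), and Meg3 had a log2 fold change of -2.23 ± 0.45 (edgeR adjusted p = 0.266).

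The first comparison asked whether the stromal markers differed between the edits within a run. None of the 10 markers passed the edgeR threshold (adjusted p under 0.05, over all 14393 genes), and their adjusted p ran from 0.441 to 0.798. Over all genes 0.00695% passed, which is Rian alone. All 10 fitted log2 fold changes (WRE-edited over Rosa26-edited, fitted with a term for run) were below 0, as were 48.3% of all genes tested. Their median was -0.58, against 0.01 over all genes. At an unadjusted p under 0.05, 3 of the 10 (Des, Lum and Col1a2) had a lower level in the WRE-edited libraries, against 5.14% of all genes, and 0 had a higher one, against 4.95%. DESeq2 called 0 of the 10, with 4 at an unadjusted p under 0.05. The count over all genes moved with these settings too. With DESeq2 6.10% of all genes were lower at that p. In edgeR the number of markers was 8 without the filter (5.06% of all genes lower) and 8 without WRE-edited 1 (7.86%). Without Rosa26-edited 3 it was 7 (6.81%), and without Rosa26-edited 4 it was 5 (4.61%). It was 1 without WRE-edited 3 (2.93%), without WRE-edited 6 (2.53%) and without Rosa26-edited 2 (5.13%). It was also 1 in r770 alone (1.71%) and without the run term (2.58%). Without WRE-edited 6, r770 is the only run that holds both edits, so that fit and r770 alone rest on the same contrast. The median log2 fold change of the markers was -0.48 in r770 alone and -0.28 without the run term. In bulk RNA, fewer stromal cells and less RNA per stromal cell cannot be told apart.

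The size of the shift varied with the libraries kept. WRE-edited 3 and WRE-edited 6 had the lowest summed level of the 10 markers, 44.6 and 45.6 CPM (counts scaled to library size with TMM factors). The other WRE-edited libraries lay between 59.3 and 113.02 CPM, and the Rosa26-edited libraries between 79.6 and 112.8. With both left out, the median log2 fold change was -0.31, 7 of 10 were below 0 and none had an unadjusted p under 0.05. Col1a1 (0.07), Reln (0.23) and Pdgfrb (0.13) were then above 0. Reln weighs heavily in these sums. Without it WRE-edited 3 and 6 were at 26.2 and 24.4 CPM, close under Rosa26-edited 3 and 4 at 30.6 and 31.1, and the other controls reached 81.1. Reln gave 61.6 of the 113.02 CPM of WRE-edited 1, which without it was at 51.4 CPM. With WRE-edited 1 left out, the median log2 fold change was -0.93. WRE-edited 4, which shares a number in its name with WRE-edited 6, was at 78.3 CPM in r711, against 45.6 CPM for WRE-edited 6 in r595. The part of the run in this gap was not tested.

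**Figure D1:**
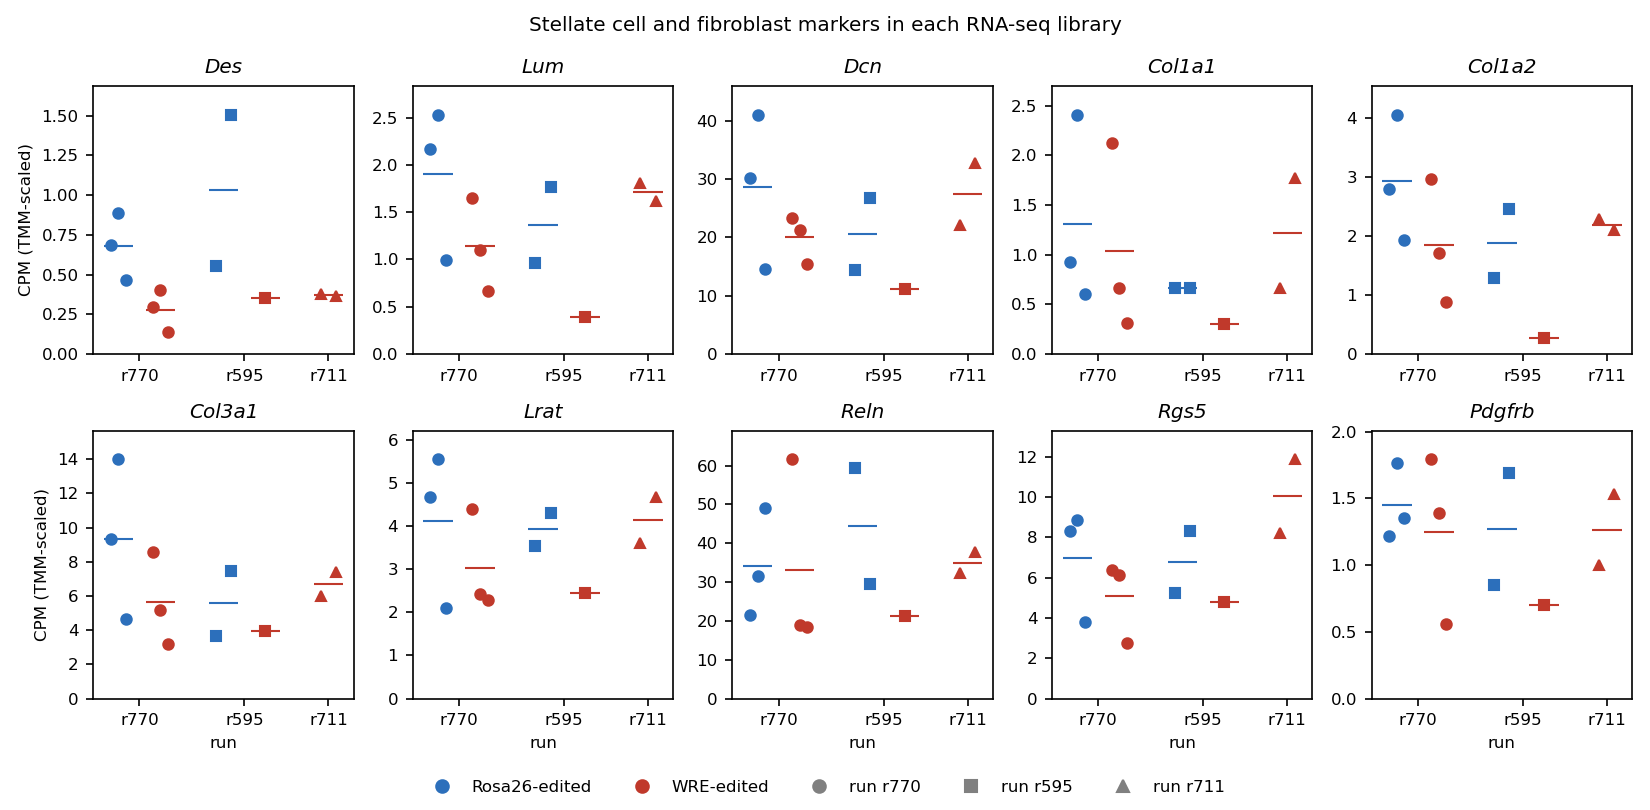
Level of each of the 10 markers in CPM (TMM-scaled, linear axis from 0) in the 11 RNA-seq libraries, by run and edit; each point is 1 library and each line the mean of its run and edit. In the panel for Des every WRE-edited library lies below every Rosa26-edited one, and in the other 9 panels the edits overlap.

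Des encodes desmin, the muscle-type intermediate filament by which stellate cells of rodents are often stained. In r770 it was at 0.684, 0.885 and 0.464 CPM in Rosa26-edited 1 to 3 and at 0.293, 0.405 and 0.140 CPM in WRE-edited 1 to 3. In r595 it was at 0.555 and 1.51 CPM in Rosa26-edited 4 and 5 and at 0.351 CPM in WRE-edited 6, and in r711 at 0.381 and 0.364 CPM. All 6 WRE-edited libraries were thus below all 5 Rosa26-edited libraries, which held for 0.222% of the genes tested. The log2 fold change was -1.34 ± 0.47 (SE), or 2.53-fold lower, with a 95% interval from -2.36 to -0.32 (edgeR adjusted p = 0.441). The values rest on few reads, 4 to 41 per library and 172 in all. On the TPM scale the edits overlapped for Des, with 3 of 6 WRE-edited libraries below the lowest Rosa26-edited one. The effective length of Des in the deposited tables ran from 1253 to 2889 bases between libraries. With these lengths as offsets the log2 fold change was -1.07.

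Lrat encodes the enzyme that esterifies retinol for storage, the biochemical mark of the quiescent stellate cell. It was at 4.67, 5.55, 2.10, 3.55 and 4.30 CPM in Rosa26-edited 1 to 5, and in the WRE-edited libraries its lowest, median and highest values were 2.28, 3.04 and 4.69 CPM. The lowest of all 11 was Rosa26-edited 3, so the edits overlapped. The log2 fold change was -0.51 ± 0.30 (edgeR adjusted p = 0.560), and -0.34 without Rosa26-edited 2.

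Reln encodes reelin, a large secreted glycoprotein that stellate cells express in the liver. It was the marker with the most counts (10498 in all). In r770 it was at 21.4, 31.6 and 49.0 CPM in Rosa26-edited 1 to 3 and at 61.6, 18.97 and 18.4 CPM in WRE-edited 1 to 3. WRE-edited 1 had the highest level of the 11 libraries and WRE-edited 3 the lowest. In r595 Reln was at 59.3 and 29.5 CPM in Rosa26-edited 4 and 5 and at 21.3 CPM in WRE-edited 6. Its log2 fold change was -0.33 ± 0.45 (edgeR adjusted p = 0.798). It was -0.04 without WRE-edited 6 (which leaves the contrast to r770), -0.93 without WRE-edited 1 and -0.60 with the effective lengths as offsets.

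Rgs5, a regulator of G-protein signalling, and Pdgfrb, the receptor for PDGF-B, are shared with pericytes. Rgs5 was at 8.30, 8.88, 3.78, 5.25 and 8.34 CPM in Rosa26-edited 1 to 5, and from 2.74 to 11.9 CPM (median 6.25) in the WRE-edited libraries. The highest level was in WRE-edited 5 of r711 and the lowest in WRE-edited 3. Pdgfrb was at 1.22, 1.77, 1.36, 0.851 and 1.69 CPM in Rosa26-edited 1 to 5, and from 0.561 to 1.79 CPM (median 1.19) in the WRE-edited ones. For both, the ranges of the edits overlapped and WRE-edited 3 had the lowest level. The log2 fold changes were -0.47 ± 0.31 for Rgs5 and -0.39 ± 0.39 for Pdgfrb (edgeR adjusted p = 0.594 and 0.727). Without WRE-edited 3 they were -0.28 and -0.17, and without WRE-edited 1 Pdgfrb was at -0.66.

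Lum and Dcn encode lumican and decorin, small leucine-rich proteoglycans that bind collagen fibrils. Lum was at 2.17, 2.53 and 0.999 CPM in Rosa26-edited 1 to 3 and at 1.65, 1.099 and 0.666 CPM in WRE-edited 1 to 3. In r595 it was at 0.962 and 1.76 CPM in Rosa26-edited 4 and 5 and at 0.395 CPM in WRE-edited 6, the lowest of all, from 9 reads. The log2 fold change of Lum was -0.996 ± 0.40 (edgeR adjusted p = 0.447). It was -0.75 without WRE-edited 6, which leaves the contrast to r770. Dcn, the second most counted marker (7237 in all), was at 30.2, 41.1, 14.7, 14.4 and 26.8 CPM in Rosa26-edited 1 to 5. In the WRE-edited libraries its lowest, median and highest values were 11.2, 21.7 and 32.8 CPM, which overlap those of the control. Its log2 fold change was -0.62 ± 0.29, with a 95% interval from -1.26 to 0.02 (edgeR adjusted p = 0.498). Without Rosa26-edited 2 it was -0.41. Dcn had the smallest biological coefficient of variation of the 10, 29.8%.

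Col1a1 and Col1a2 encode the chains of type I collagen, and Col3a1 that of type III collagen. Col1a2 was at 2.80, 4.06 and 1.93 CPM in Rosa26-edited 1 to 3 and at 2.96, 1.71 and 0.877 CPM in WRE-edited 1 to 3. In r595 it was at 1.29 and 2.46 CPM in Rosa26-edited 4 and 5, and at 0.263 CPM, from 6 reads, in WRE-edited 6. The edits overlapped in r770, and in r595 the WRE-edited library was below both controls. Its log2 fold change was -1.102 ± 0.46 (edgeR adjusted p = 0.460), and -0.67 without WRE-edited 6, which leaves the contrast to r770. Col1a1 was at 0.922, 2.41, 0.606, 0.666 and 0.661 CPM in Rosa26-edited 1 to 5, and from 0.307 to 2.12 CPM (median 0.666) in the WRE-edited libraries. One library of each edit in r770 stood high. Its log2 fold change was -0.53 ± 0.60 (edgeR adjusted p = 0.757), and its coefficient of variation, 56.9%, was the largest of the 10. With 1 library left out, the fold change of Col1a1 ran from -1.31 (without WRE-edited 1) to -0.02 (without Rosa26-edited 2). Col3a1 was at 9.34, 14.001, 4.67, 3.66 and 7.49 CPM in Rosa26-edited 1 to 5, and from 3.19 to 8.56 CPM (median 5.59) in the WRE-edited ones. The log2 fold change was -0.66 ± 0.35 (edgeR adjusted p = 0.534). It was -0.38 without Rosa26-edited 2, and -0.16 with the effective lengths as offsets, which ran from 1924 to 4782 bases for Col3a1.

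**Figure D2:**
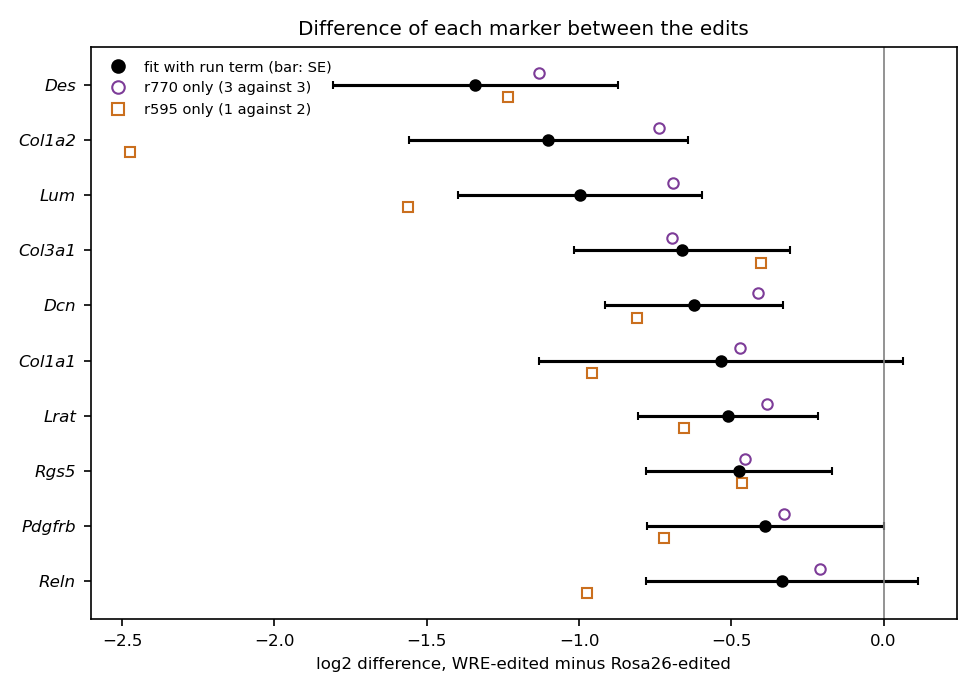
Log2 difference, WRE-edited minus Rosa26-edited, of each marker: black points and bars give the fit with the run term and its SE, open circles the difference of mean log2 CPM in r770 and open squares that in r595. All 3 estimates are below 0 for every marker, and the r595 estimate, from 1 WRE-edited library, is farthest out for Col1a2 (-2.47).

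Both runs with a control gave the same direction. The difference of mean log2 CPM was below 0 for all 10 markers in r770 and in r595, against 28.6% of all genes tested. In r770 it ran from -1.13 for Des to -0.21 for Reln (median -0.46), and Des alone had every WRE-edited library below every control, 1 of 10 against 4.34% of all genes. In r595 it ran from -2.47 for Col1a2 to -0.40 for Col3a1 (median -0.88). WRE-edited 6 was below both controls for 9 of 10 markers, all but Col3a1, against 34.4% of all genes. Apart from Reln the markers rose and fell together between libraries, as given below. Counts of markers are therefore not counts of separate readouts, and in r595 they rest on 1 WRE-edited library. The difference of the effect between the runs was tested with an interaction term in edgeR. It passed for 0 of 10 markers and 0 of 14582 genes (0%), with 951 genes at an unadjusted p under 0.05. For Col1a2 it was -2.15 ± 1.02 (edgeR adjusted p = 0.765). The markers varied more between libraries than most genes, with a median coefficient of variation of 37.5% against 20.96% over all genes tested.

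Per transcript length, all 10 markers were far below the hepatocyte genes. Dcn had the highest median over the 11 libraries, 9.16 TPM (4.62 to 18.1), followed by Reln at 2.32 TPM (1.23 to 8.21). Col3a1 and Rgs5 followed at medians of 1.37 and 1.17 TPM, and their ranges overlapped (0.67 to 3.15 and 0.37 to 2.59). Lrat, Lum and Col1a2 were at 0.53, 0.42 and 0.35 TPM, and Pdgfrb, Des and Col1a1 at 0.18, 0.17 and 0.10 TPM. The ranges of all neighbours in this order overlapped across libraries. Within libraries, Dcn was above Reln and Rgs5 above Lrat in 11 of 11, Lum above Col1a2 and Col1a2 above Pdgfrb in 10, and Reln above Col3a1 in 9. The other neighbours kept the order in 6 to 8 of 11 libraries. The TPM order of libraries for Col1a1 differed from the CPM order, since its effective length ran from 1210 to 5791 bases. In TPM its highest values were 0.57 in WRE-edited 5 and 0.46 in Rosa26-edited 5.

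Apart from Reln, the markers went up and down together from library to library. After the mean of each run was taken off the log2 CPM, each of the other 9 correlated with the mean of the remaining markers at Pearson's r from 0.80 (Des) to 0.93 (Lum) over 11 libraries. Reln had r = 0.31, and -0.14 without WRE-edited 3 and 6, the 2 libraries farthest from the median. Among the 36 pairs without Reln the median r was 0.80 (0.54 to 0.96), highest for Lum with Col1a2. Among the 9 pairs with Reln it was 0.26 (0.01 to 0.56), lowest for Dcn. Reln was above its run's mean in Rosa26-edited 3 and 4, by 0.71 and 0.83 on the log2 scale, while the other markers there had both signs. These correlations describe libraries that share runs and a scaling, and they carry no test.

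**Figure D3:**
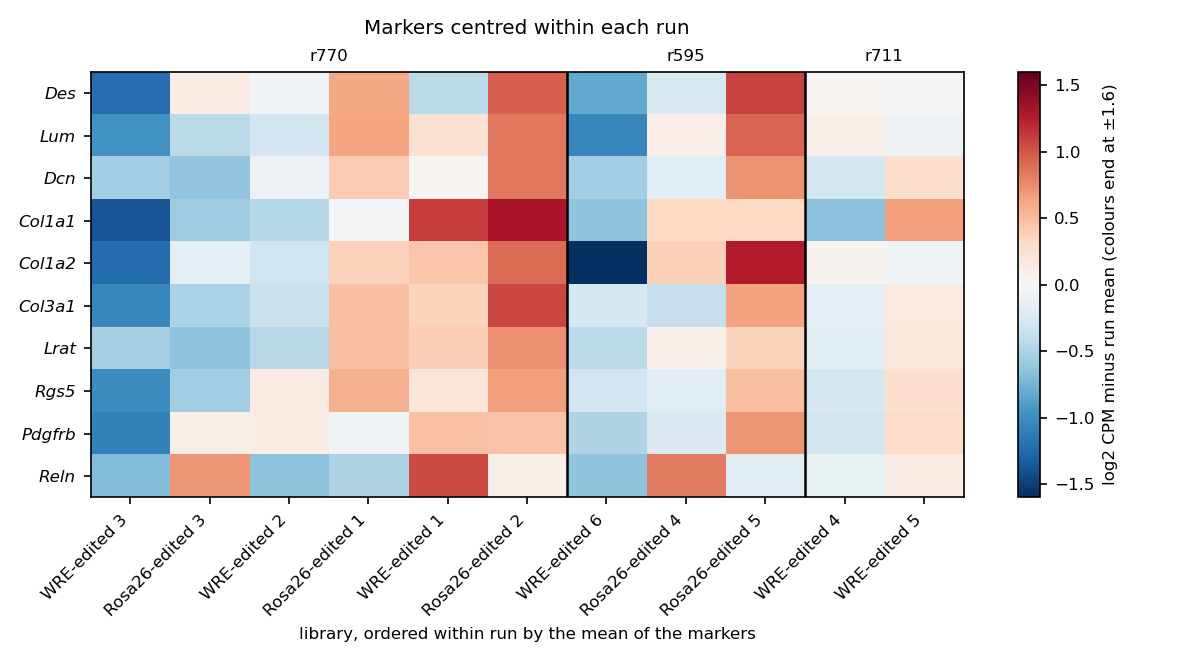
Log2 CPM of each marker minus the mean of its run, in the 11 RNA-seq libraries ordered within run by the mean of the markers (blue below, red above the run's mean; colours end at 1.6). The upper 9 rows are blue in WRE-edited 3 and WRE-edited 6, and red in Rosa26-edited 2 and Rosa26-edited 5, while the bottom row, Reln, is highest in WRE-edited 1 and Rosa26-edited 4.

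The 250 bases upstream of the start are shown for Col1a2 and Col3a1, fibrillar collagen genes (r = 0.75 with each other), and for Reln (r = 0.46 with Col1a2 and 0.16 with Col3a1). They are from RefSeq (GRCm38.p6), written 5′ to 3′ on the gene's strand. Capitals mark TATAAA or CCAAT, each searched on both strands.
Col1a2 (chr6:4505368-4505617, plus strand): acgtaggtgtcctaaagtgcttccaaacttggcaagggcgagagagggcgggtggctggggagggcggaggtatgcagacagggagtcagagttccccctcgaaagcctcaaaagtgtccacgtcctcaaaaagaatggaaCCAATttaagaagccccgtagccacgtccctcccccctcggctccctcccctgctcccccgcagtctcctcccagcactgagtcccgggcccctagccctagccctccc
Col3a1 (chr1:45311288-45311537, plus strand): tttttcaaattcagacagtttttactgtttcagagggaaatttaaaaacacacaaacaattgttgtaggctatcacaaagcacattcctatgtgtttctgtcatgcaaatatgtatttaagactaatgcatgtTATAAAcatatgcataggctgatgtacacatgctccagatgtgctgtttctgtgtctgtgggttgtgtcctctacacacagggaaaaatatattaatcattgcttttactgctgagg
Reln (chr5:22344706-22344955, minus strand): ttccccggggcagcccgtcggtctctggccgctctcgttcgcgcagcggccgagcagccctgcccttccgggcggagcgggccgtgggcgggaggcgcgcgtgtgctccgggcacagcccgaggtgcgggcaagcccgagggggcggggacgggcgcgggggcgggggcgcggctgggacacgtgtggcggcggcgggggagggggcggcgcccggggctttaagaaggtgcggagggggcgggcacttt
Reln has 37 CpG in this window and 80% G and C, Col1a2 has 11 CpG and 62%, and Col3a1 has 0 CpG and 35.2%. The median over 27025 promoters of that length was 6 CpG. Col1a2 holds 1 CCAAT, as do 34.5% of these promoters, Col3a1 holds 1 TATAAA, as do 13%, and Reln holds neither.

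The 8 genes outside the list that most resembled the mean of the 10 markers were Ergic2 (r = 0.99), Matr3 (0.99), Cul5 (0.98), 2010315B03Rik (0.97), Ranbp2 (0.97), Ipo7 (0.97), Hltf (0.97) and Chm (0.96). They were the highest of 12222 genes with a mean of at least 1 CPM, over 11 libraries. None of them is on a list of stromal or other cell type markers used here. Their own log2 fold changes ran from -0.63 (Chm) to -0.18 (Ipo7), with edgeR adjusted p from 0.414 (Chm) to 0.654 (Ipo7).

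Markers of macrophages and of sinusoidal endothelium varied with the stromal ones. All 14 macrophage and Kupffer cell markers had a log2 fold change below 0, with a median of -0.43. Their summed level was 511 to 698 CPM in the WRE-edited libraries and 458 to 1558 CPM in the Rosa26-edited ones. Of 15 sinusoidal endothelial markers 13 were below 0, with a median of -0.19, and their sums were 221 to 375 and 243 to 363 CPM. By mean log2 CPM 12 of the 14 macrophage markers and 8 of the 15 endothelial ones were lower in both r770 and r595, against 28.6% of all genes. Neither list had a gene past the edgeR threshold. Clec4f, a Kupffer cell lectin, had -0.44 ± 0.23 and Vsig4, a complement receptor, -0.55 ± 0.38. Stab2 and Lyve1, hyaluronan receptors of the sinusoid, had -0.11 ± 0.24 and -0.29 ± 0.26. The run-centred mean of the stromal markers correlated with that of the macrophage list at r = 0.75, of the endothelial list at 0.71 and of 10 hepatocyte markers at 0.16. The part of these other cells in the stromal result was not tested.

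**Figure D4:**
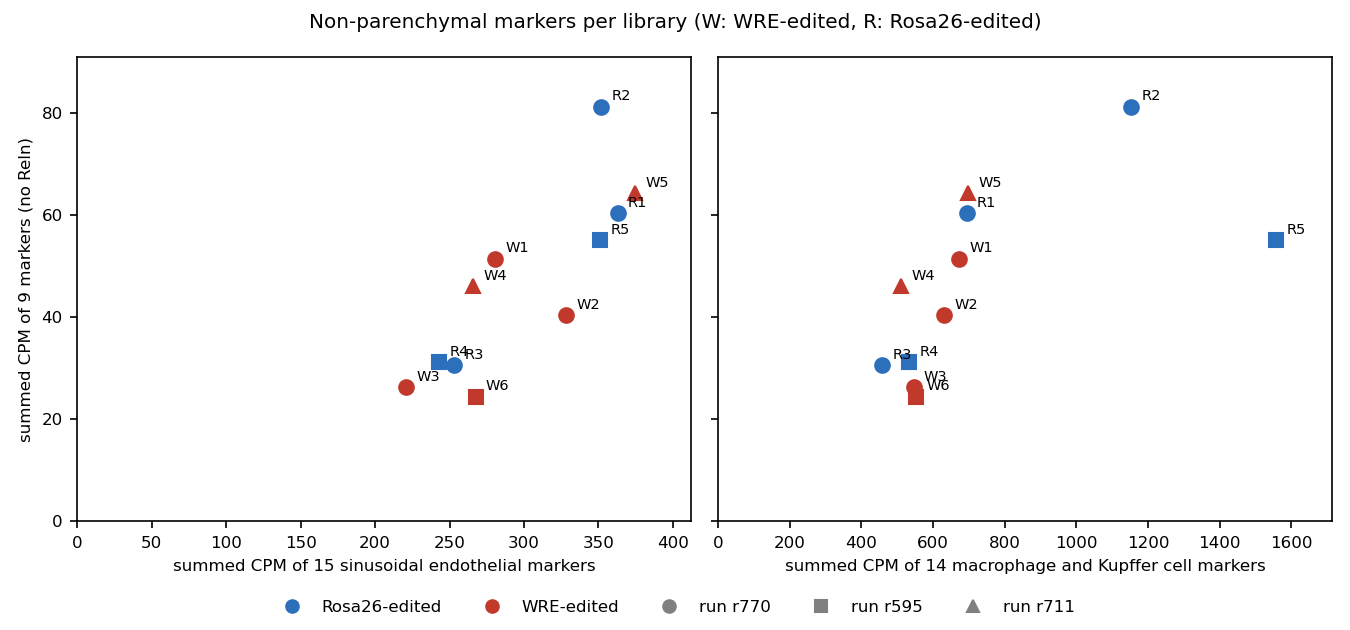
Summed CPM of the markers without Reln (vertical axis) against the summed CPM of 15 sinusoidal endothelial markers (left) and of 14 macrophage and Kupffer cell markers (right); each point is 1 of the 11 RNA-seq libraries, coloured by edit and shaped by run. Rosa26-edited 2 is high in stromal and macrophage markers (81.1 and 1153 CPM), and Rosa26-edited 5 is highest in macrophage markers (1558 CPM, with 55.0 CPM of stromal ones). WRE-edited 3 and 6 are lowest in stromal markers (26.2 and 24.4 CPM), but at 546 and 552 CPM of macrophage markers they are above Rosa26-edited 3 (458), WRE-edited 4 (511) and Rosa26-edited 4 (533).

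Markers of other blood cells and of bile ducts were at low levels. The neutrophil genes S100a8 and S100a9 had -1.07 ± 0.57 and -0.69 ± 0.48, and all 5 neutrophil markers tested were below 0. Their summed level was 5.52 to 7.51 CPM in the WRE-edited and 5.17 to 23.5 CPM in the Rosa26-edited libraries. The cholangiocyte keratins Krt19 and Krt7 and the T cell genes Cd3e and Cd3g were below the filter, with 54, 39, 10 and 96 counts over all libraries. The summed level of the cholangiocyte list was 3.85 to 11.3 and 4.67 to 9.69 CPM, with 2 of 10 tested, and that of the lymphocyte list 1.38 to 5.05 and 2.78 to 6.68 CPM, with 3 of 11 tested.

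Further genes of quiescent stellate cells had the same sign less uniformly. Of 18, 14 were tested, 11 below 0 and 3 above, with a median of -0.23 and none past the threshold. Hgf, a growth factor for hepatocytes, had -0.74 ± 0.36, Ngfr, a neurotrophin receptor, -0.71 ± 0.40, and Cygb, the globin of stellate cells, -0.77 ± 0.43. Plin2, a lipid droplet coat protein that hepatocytes also express, had 0.32 ± 0.16 and took most of the list's summed level. That sum was 366 to 716 CPM in the WRE-edited and 262 to 407 CPM in the Rosa26-edited libraries, with means of 418 and 371 CPM in r770. Without Plin2 it was 65.6 to 100.4 and 74.9 to 118.4 CPM, so the edits overlapped. The stellate intermediate filament gene Gfap stayed below the filter, with 18 counts in all.

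Genes of activated stellate cells and myofibroblasts had mixed signs, and some, Acta2 among them, had too few counts to be tested. Of 24, 19 were tested, 12 below 0 and 7 above, with a median of -0.41. None passed the threshold, and 2 had an unadjusted p under 0.05. The summed level was 909 to 1629 CPM in the WRE-edited and 721 to 2453 CPM in the Rosa26-edited libraries. The median level of the genes tested was 0.72 TPM, so this sum rests on the more abundant genes of the list. Col6a2 and Col6a3, chains of type VI collagen, had -1.16 ± 0.50 and -1.05 ± 0.48 (edgeR adjusted p = 0.468 and 0.495). Mmp2, a gelatinase, had -1.15 ± 0.53 and Spp1, osteopontin, -1.02 ± 0.51. Acta2, the smooth muscle actin that defines the myofibroblast, was below the filter with 31 counts over 11 libraries, as were Timp1 (62), Tnc (55), Loxl1 (19) and Lox (16).

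Portal fibroblasts and mesothelium were hardly detected, with 5 of 16 genes tested and 4 below 0 (median -0.28). Gsn, which severs actin, had -0.70 ± 0.45, Fbln1, a matrix glycoprotein, -0.94 ± 0.66, Eln, elastin, -0.28 ± 0.31, and Entpd2, an ectonucleotidase, 0.27 ± 0.36. Of 12 smooth muscle and pericyte genes 8 were tested, all below 0 in the fit (median -0.34). By mean log2 CPM 5 of these 8 were lower in r770, 6 in r595 and 3 in both, against 28.6% of all genes in both. Abcc9, a channel subunit of pericytes, had -0.34 ± 0.22, Mcam, an adhesion molecule, -0.33 ± 0.25, Myh11, smooth muscle myosin, -0.72 ± 0.49, and Pln, a calcium pump regulator, -0.71 ± 0.60. In neither list did a gene pass the edgeR threshold or reach an unadjusted p under 0.05.

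The proteoglycans and PDGF genes related to the markers were mostly below 0. Of 9 small leucine-rich proteoglycans other than Lum and Dcn 3 were tested, all below 0. Omd, osteomodulin, had -1.01 ± 0.44 (edgeR adjusted p = 0.469), Bgn, biglycan, -0.41 ± 0.32 and Prelp -0.41 ± 0.32. Of the PDGF genes other than Pdgfrb 4 of 5 were tested. The receptor Pdgfra had -0.90 ± 0.52, and the ligands Pdgfd, Pdgfa and Pdgfc had -0.92 ± 0.53, -0.18 ± 0.27 and 0.09 ± 0.15.

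Genes that act on collagen, TGF-β or retinoids in many cell types had both signs. Of 15 collagen processing genes tested 5 were below 0 and 10 above (median 0.09). Sparc, a collagen-binding matrix protein, had -0.41 ± 0.18 (edgeR adjusted p = 0.486), and the collagen chaperone Serpinh1 -0.29 ± 0.33. P4hb, a subunit of prolyl hydroxylase, had 0.12 ± 0.13 and Plod1, a lysyl hydroxylase, 0.16 ± 0.14. Of 13 TGF-β genes tested 6 were below 0 and 7 above (median 0.01). The inhibitor Smad7 had 0.40 ± 0.17 (edgeR adjusted p = 0.469), Smad4 0.33 ± 0.15, the latent TGF-β binding protein Ltbp1 -1.22 ± 0.62 and the co-receptor Tgfbr3 -0.47 ± 0.25. Of 12 genes of retinoid storage and turnover tested 5 were below 0 and 7 above (median 0.12). Cyp26b1, which degrades retinoic acid, had 0.63 ± 0.32, Dhrs3 and Rdh10, which interconvert retinol and retinal, 0.20 ± 0.13 and -0.19 ± 0.14, and the acyltransferase Dgat1 0.15 ± 0.13.

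The second comparison asked how far the markers differed between runs, with the edit as a term. In r595 against r770 none of the 10 passed the edgeR threshold, while 16.2% of all genes did (2329 of 14393, with 9.07% lower and 7.11% higher in r595). Col1a2 had the smallest p, with -1.18 ± 0.50 (edgeR adjusted p = 0.129). Col1a1 had -1.22 ± 0.66, Lum -0.79 ± 0.43, and Reln 0.03 ± 0.47. The run also differs in mitochondrial ribosomal RNA, as given above, and its part in these values was not tested.

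The miRNA libraries gave another readout of mesenchymal cells. miR-143 and miR-145 are enriched in smooth muscle, pericytes and fibroblasts, miR-199a and miR-214 in stellate cells and fibroblasts, and the miR-29 family is known to target collagen transcripts. The mature sequences of 5 of them are shown from RefSeq (GRCm38.p6) with the seed, bases 2 to 8, in capitals, to show that the 3 members of the miR-29 family share a seed and the 2 arms of miR-199a do not.
miR-199a-3p: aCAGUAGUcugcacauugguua
miR-199a-5p: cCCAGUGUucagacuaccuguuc
miR-29a-3p: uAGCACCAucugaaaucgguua
miR-29b-3p: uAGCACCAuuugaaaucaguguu
miR-29c-3p: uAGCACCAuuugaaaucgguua
Both miR-199a arms come from hairpins on chromosomes 1 and 9, miR-29a from chromosome 6, miR-29b from chromosomes 1 and 6, and miR-29c from chromosome 1. The data join miR-199a-3p with miR-199b-3p.

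Of the 6 mesenchymal miRNAs tested, 5 had a fitted log2 fold change above 0 in the WRE-edited libraries, the opposite sign to the mRNA markers. The median over all miRNAs tested was -0.005. The 6 are both arms of miR-143, miR-145a and miR-199a, and arms of the same hairpin are not separate readouts. The miRNA libraries were not matched to the RNA-seq ones, and their fit had no run term. Over the 355 miRNAs tested edgeR called 0 (0%), with 39 at an unadjusted p under 0.05, and DESeq2 called 4, none of them listed here. miR-143-3p was at 1049, 766 and 717 CPM in Rosa26-edited 1 to 3 and at 1094, 1427 and 1275 CPM in WRE-edited 1 to 3, so every WRE-edited library was above every control, as for 3.38% of the miRNAs tested. Its log2 fold change was 0.58 ± 0.23 (edgeR adjusted p = 0.358). miR-199a-5p was at 111.8, 58.1 and 56.4 CPM in the Rosa26-edited and at 115.7, 129.7 and 99.8 CPM in the WRE-edited libraries. The groups overlapped through Rosa26-edited 1, and the log2 fold change was 0.60 ± 0.32 (edgeR adjusted p = 0.597). miR-199a-3p/199b-3p had 0.33 ± 0.27, miR-145a-5p 0.25 ± 0.26, miR-145a-3p 0.72 ± 0.41 and miR-143-5p -0.05 ± 0.42. miR-214-3p, with 50 counts in all, was not tested.

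The miR-29 family showed its largest spread among the controls. miR-29a-3p was at 13011, 12155 and 7988 CPM in Rosa26-edited 1 to 3 and at 11066, 9014 and 11595 CPM in WRE-edited 1 to 3. miR-29b-3p was at 1512, 1369 and 542 CPM in the Rosa26-edited and at 1075, 667 and 1062 CPM in the WRE-edited libraries. miR-29c-3p was at 2185, 1916 and 827 CPM and at 1830, 1135 and 1595 CPM. All 3 were lowest in Rosa26-edited 3, and the groups overlapped. The log2 fold changes were -0.07 ± 0.23, -0.29 ± 0.37 and -0.11 ± 0.35. Some library names (Rosa2 and Rosa4 among them) recur in the RNA-seq set. The number in the name of miRNA library WRE-edited 3 also recurs there, but under the other edit, in Rosa26-edited 1. The labels do not state whether shared names or numbers mark the same mice, so RNA and miRNA values were not paired. Whether the edit given for miRNA library WRE-edited 3 is right was not tested. With WRE-edited 3 left out, the log2 fold change of miR-143-3p was 0.59.

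**Figure D5:**
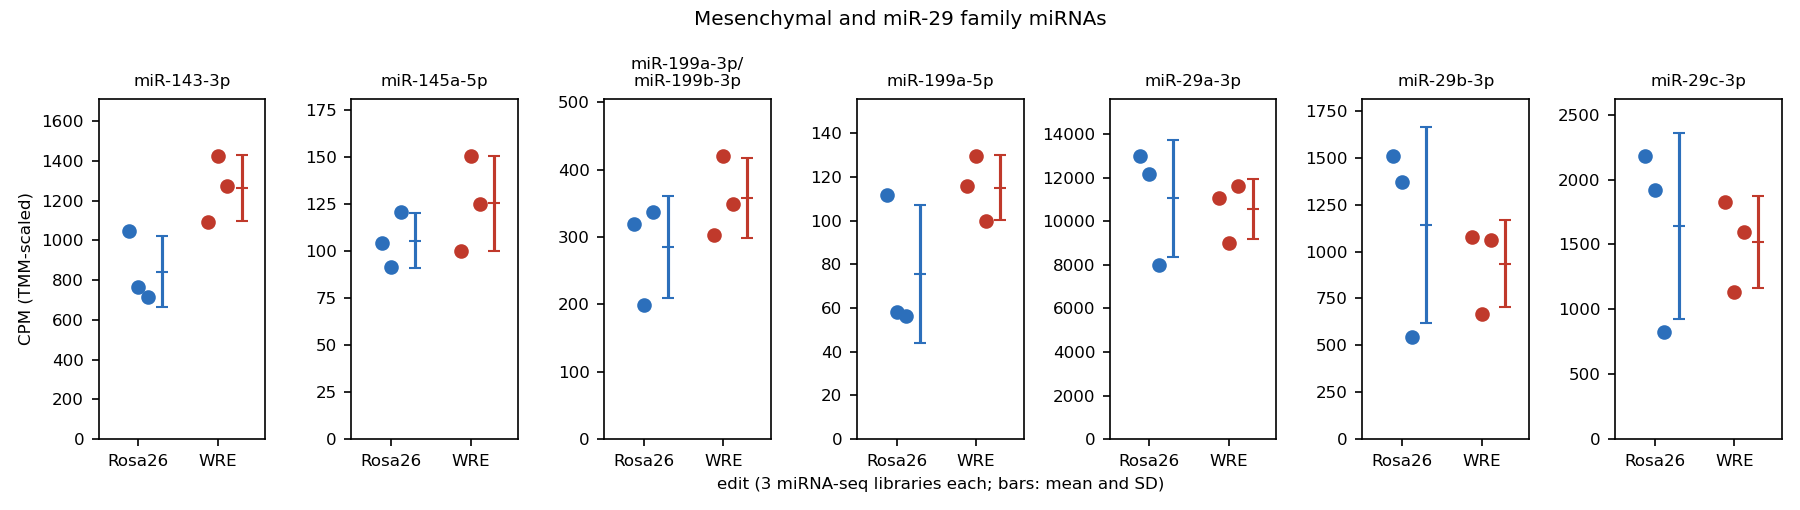
CPM (TMM-scaled, linear axis from 0) of 4 mesenchymal miRNAs and of the 3 members of the miR-29 family in 3 Rosa26-edited and 3 WRE-edited miRNA-seq libraries; points are libraries, and bars beside them give the mean and SD. The groups are apart for miR-143-3p and overlap in the other 6 panels.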

How the data were processed

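RNA-seq and miRNA-seq libraries were grouped by the condition in the labels, and runs were read from the library names. The authors deposited 1 table per RNA-seq library with expected counts, TPM and other values (effective lengths in bases) per Ensembl gene, per the file headers. STAR 2.7.6a, RSEM 1.3.1 and GRCm38 are named in the submitters' processing notes. For miRNA-seq the authors deposited a matrix of whole-number counts by mature miRNA. Strand setting, annotation version and the miRNA tools: not given in the sources used here. Sense and antisense reads of a gene therefore cannot be told apart. A deposited matrix of normalized values, which the notes link to DESeq2 1.26.0 in R 3.6.3, was not used.

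Expected counts were rounded, and 55450 of 55536 identifiers matched a symbol. In R 4.3.3 with edgeR 4.0.16, genes were filtered by group (minimum count 10, total 15), scaled by TMM and fitted by robust quasi-likelihood with run and group, two-sided, with Benjamini-Hochberg adjustment over all 14393 genes and a threshold of 0.05. Residual degrees of freedom were 7, and r711, without a control, adds to the spread alone. The miRNA fit held the group (1393509 to 2011383 counts per library). Log2 CPM used a prior count of 2. Depth limits Des, Col1a1 and Pdgfrb most, with 172, 318 and 394 counts over all libraries, and counting error adds to their spread.

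The markers and lists were chosen with earlier results of these data known. The genes named are the 10 markers, up to 4 genes of smallest p from each stromal or pathway list, the first 2 of each other cell type, 8 genes by correlation, all listed miRNAs measured, and Rian and Meg3. Timp1, Acta2, Gfap, Lox, Loxl1 and Tnc were named after their values were seen. Alternatives were DESeq2 1.42.0, its size factors, no filter, length offsets, no run term, r770 alone, WRE-edited 4 and 6 summed, a replicate block and leaving out each library. Leaving out WRE-edited 3 and 6 together, and Reln, was chosen after seeing the data. The fits were run on simulated data with a smaller spread than that of the markers, so their power for these genes was not measured.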

Additional observations from a re-analysis of the deposited data

Results flagged for a closer look

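One value stood apart from its group. Col1a1, a chain of type I collagen, was at 2.41 CPM in Rosa26-edited 2, while the nearest of the other 4 Rosa26-edited libraries was at 0.922 CPM and the lowest at 0.606. The gap to the nearest was 0.825 of the range, above the limit of 0.71 for 5 samples. It was 1 of 26 groups examined, and chance flags about 1 in 20.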

How the results depend on the processing

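No alternative reversed the median log2 fold change of the 10 markers, which ran from -0.93 to -0.23 over 22 alternatives (-0.93 without WRE-edited 1, -0.39 without Rosa26-edited 2). The alternatives are not separate checks. Leaving out WRE-edited 4 or 5, of a run without a control, could hardly move the median (-0.58 each). Leaving out WRE-edited 6 (-0.49) largely repeats r770 alone (-0.48). The size of this median depended on the run term. Without that term it was -0.28, and -0.25 with WRE-edited 4 and 6 also summed. With the replicate block and no run term it was -0.23. All 10 stayed below 0 in every alternative but the replicate block without the run term, where Col1a1 was at 0.0079, and leaving out WRE-edited 3 and 6 together, where Col1a1 (0.066), Reln (0.23) and Pdgfrb (0.13) reversed. Without a filter 1 marker of 10 was called, Dcn (adjusted p = 0.0157), and 450 of the 27704 genes that this fit tested. Over all genes the count was 0 without the run term, in r770 alone and without WRE-edited 3 and 6, 83 with DESeq2, and 0 to 2 when 1 library was left out. The count of markers was 0 each time. In r595 against r770, 1 marker was called with length offsets (Col1a2, adjusted p = 0.0318, as were 20.4% of all genes, 2930 in number). When 1 library was left out, 0 to 1 was called (Dcn, adjusted p = 0.0420, without Rosa26-edited 3, as were 16.3% of all genes). Over all genes the count was 568 in Rosa26-edited libraries alone and 1428 to 2381 when 1 library was left out. For the difference between runs it was 251 of 27061 genes without a filter. For these shifts the cause was not tested.

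Replicate numbers did not pair the samples (correlations of deviations -0.09 to 0.18 for RNA over all runs and -0.28 to 0.20 for miRNA). In r770 alone the RNA correlations ran from -0.25 to 0.09. With the replicate block and the run term 0 markers and 2 of all genes were called, and the median was -0.48. The replicate block called 0 miRNAs.

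DESeq2 called 4 miRNAs. When 1 library was left out, miR-143-5p ran from -0.33 to 0.25, with values above 0 without WRE-edited 1 (0.20), WRE-edited 2 (0.01), Rosa26-edited 1 (0.08) and Rosa26-edited 2 (0.25). Without WRE-edited 2, Rosa26-edited 1 and Rosa26-edited 2, miR-29a-3p was at 0.06, 0.11 and 0.05 and miR-29c-3p at 0.08, 0.18 and 0.06. Without Rosa26-edited 1, miR-29b-3p was at 0.0019. Their lowest values, without Rosa26-edited 3, were -0.25 (miR-29a-3p), -0.62 (miR-29b-3p) and -0.42 (miR-29c-3p).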
